A study of Mus musculus with 13 samples.

Results

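Ribosome biogenesis and nucleolar genes were described in immature Vγ2 γδ thymocytes and in CD4 and CD8 double positive thymocytes. The mice were wild type or Sox4 conditional knockout. The members were a list of 46 genes, chosen as Myc-driven growth genes. They were taken by gene symbol from probe sets annotated with that symbol alone, and the brightest probe set on average stood for each gene. Of the 46 members, 45 were measured among 19752 genes, and Noc2l was not analysed here. By role, 4 belong to RNA polymerase I and its initiation, 3 to box C/D and 4 to H/ACA small nucleolar ribonucleoproteins. A further 13 act in small subunit assembly and 16 in large subunit assembly, and 5 are abundant nucleolar proteins.

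A ribosome is built in the nucleolus, where RNA polymerase I transcribes a long precursor RNA. Small nucleolar ribonucleoproteins modify this precursor, and separate sets of assembly factors then cut and fold it into the small and the large subunit. Many of these genes are textbook targets of Myc, a transcription factor that drives cell growth and binds the E-box CACGTG with its partner Max. Thymocytes enlarge and make ribosomes when they enter cycle after a receptor checkpoint, whereas most double positive cells are small and resting.

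The study compared wild type (WT) mice with Sox4 conditional knockout (cKO) mice at 2 weeks of age, in cells sorted by flow cytometry from thymus. Sox4 is an HMG box transcription factor. V2 cells were sorted as TCRδ positive, Vγ2 positive, high for HSA and negative for CD4 and CD8, and DP cells as positive for CD4 and CD8. Sex is labelled mixed in every sample, but the sex-linked genes differed between arrays. Xist, from the inactive X chromosome, had a log2 intensity of 11.82 to 12.42 in V2 WT replicate 5, V2 cKO replicates 4 and 5 (each V2imm) and DP WT replicate 5. It was 5.36 to 6.08 in the 7 other arrays compared, among them both DP cKO arrays. The Y-linked gene Eif2s3y was 4.56 in DP WT replicate 5 and at least 8.61 in the others, so those 3 V2 arrays carried both. With Xist as a covariate 8 members passed between the WT populations and 2 between the cKO populations. How many of all genes passed under that covariate is not given here. The Cre line that deletes Sox4, the strain and whether animals were pooled are not given in the sources used here. Each sample had 1 Affymetrix array. V2 titles are written in 2 ways, called V2imm and immV2 here, and whether they mark a batch is not stated. Nothing in the labels ties replicates to different animals, and the p-values therefore reflect only how these samples vary, in part perhaps technically.

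Of 13 arrays, 11 entered the comparisons: 3 V2 and 2 DP arrays from WT mice, and 4 V2 and 2 DP arrays from cKO mice. The other 2 were set apart because their markers went against their labels. Cd4, the coreceptor that defines DP cells, had a log2 intensity of 6.71 to 7.36 in the 7 V2 arrays kept and of 12.36 to 12.62 in the 4 DP arrays kept. It was 7.47 in the array labelled DP cKO replicate 5 and 12.65 in the array labelled V2 WT replicate 5 (immV2). Median intensity per array was 122.2 to 137.2 and the upper quartile 332.7 to 426.2. Precision is limited by how few arrays each group has. By marker, 6 of 7 DP genes measured were lower and 6 of 7 γδ genes higher in V2 WT than in DP WT. Sox4 itself had values of 8.71, 8.64 and 9.68 in V2 WT arrays and of 8.07, 9.60, 8.11 and 8.23 in V2 cKO arrays. It had 9.37 and 8.55 in DP WT and 8.74 and 8.68 in DP cKO. The labelled knockout thus did not separate Sox4 in either population, with differences of -0.51 (SE 0.38, limma adjusted p = 0.999) in V2 and -0.25 (SE 0.49, limma adjusted p = 1) in DP. The position of its probe set relative to the deleted part is not stated, so its level checks the labels only in part.

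In WT, 11 of 45 ribosome biogenesis members rose and 1 fell in V2 against DP at a limma adjusted p under 0.05, against 3.2% of all 19752 genes that rose and 1.67% that fell. The difference was above 0 in 42 of 45 members and ran from -1.42 to 1.28 in log2 intensity. Its median was 0.44, against -0.02 over all genes. An unadjusted p under 0.05 was found for 22 members in WT and 20 in cKO, against 14% and 14.3% of all genes. No member lay below the lower quartile of the genes' mean level, and among genes above the median level 5.41% rose. In bulk arrays, fewer cells of a type and less RNA per cell cannot be told apart.

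The same direction was measured between the knockout populations, which use other arrays but share the estimate of the spread and the title covariate. There 5 of 45 members rose in V2 and 1 fell, against 3.5% and 1.94% of all genes. The difference was above 0 in 42 members, with a median of 0.35 against -0.01 over all genes. In 18 members all 7 V2 arrays were above all 4 DP arrays, and in 1 member, Wdr12, all were below. Over all genes 4.79% and 3.49% separated in these directions.

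How many members passed depended on single arrays, while the medians moved less. Over 26 alternatives in each comparison, 11 to 1575 of all genes passed in WT and 7 to 1632 in cKO. A lower member count therefore need not be particular to the members. With all 13 arrays as labelled, 0 members passed in either comparison, where 0.0557% of all genes passed in WT, and the medians were 0.42 in WT and 0.28 in cKO. The WT count was 0 without DP WT replicate 3, 2 without V2 WT replicate 3 (immV2), and 6 without V2 WT replicate 4 (V2imm) or without DP WT replicate 5. The cKO count was 1 without DP cKO replicate 3 and 10 without V2 cKO replicate 4 (V2imm). It was 3 without V2 WT replicate 4 or 5 (V2imm), V2 cKO replicate 3 or 4 (immV2), or DP cKO replicate 4. With V2imm or immV2 as the V2 arrays, 4 members passed in WT in each set, and 1 and 3 in cKO.

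**Figure D1:**
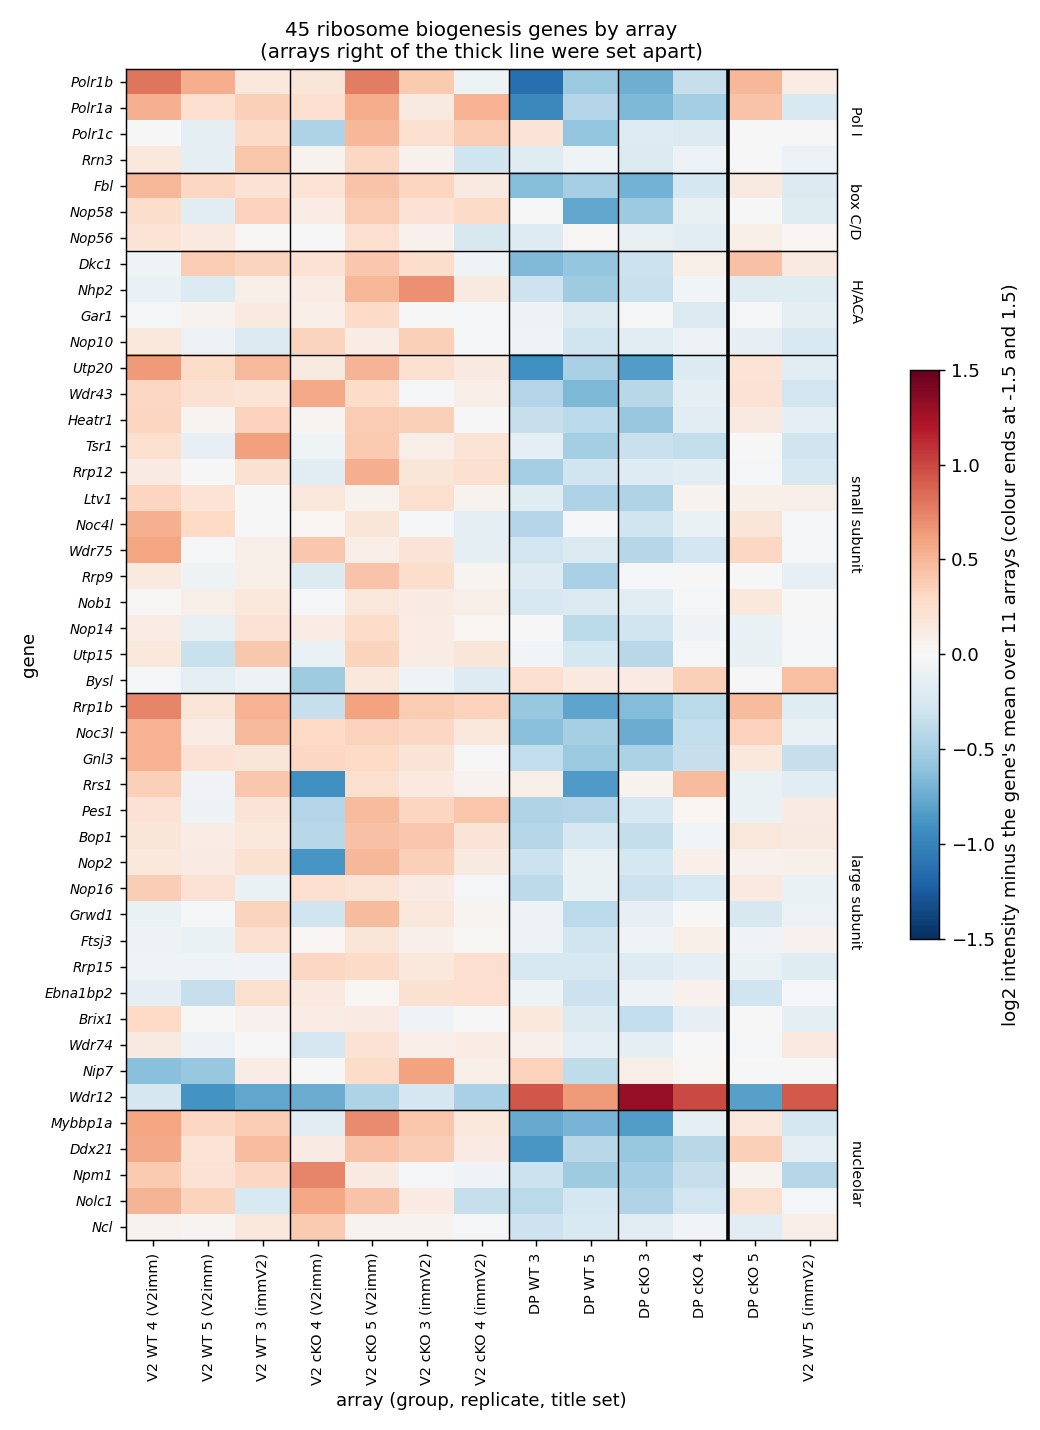
Log2 intensity of each of the 45 members (rows, by role) in each array (columns), minus the gene's mean over the 11 arrays kept; red is higher and blue lower, and the 2 arrays right of the thick line were set apart. Most rows are red in the 7 V2 columns and blue in the 4 DP columns, and Wdr12 runs the other way.

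Counted by member, the arrays set apart followed their markers more than their labels. The array labelled DP cKO replicate 5 was nearer to the V2 mean in 32 of 45 members, and in 17 of the 19 members whose kept arrays do not overlap. The array labelled V2 WT replicate 5 (immV2) was nearer to the V2 mean in 18 of 45 members and in 5 of those 19. Over the members, the median log2 intensity was 8.40 to 8.88 in the 7 V2 arrays and 8.12 to 8.34 in the 4 DP arrays, so the groups did not overlap in this median. It was 8.64 and 8.44 in the arrays labelled DP cKO replicate 5 and V2 WT replicate 5. Both values lie inside the V2 range, but 8.44 does so only because of V2 cKO replicate 4 (V2imm), at 8.40. Every other V2 array kept had 8.61 or more, and the highest DP array had 8.34. The value of 8.44 thus lies between most V2 arrays and the DP arrays, and does not decide between label and marker.

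The E-box CACGTG was looked for in the members' promoters, because it is the site that Myc and Max are known to bind. Promoters are RefSeq windows of 300 bases on GRCm38.p6, from 250 bases before to 50 after the gene's start. The motif is its own reverse complement, so both strands are covered. It was present for 9 of 40 members with a window (22.5%), against 9.51% of 15483 genes tested and 8.09% of 27025 genes with a window in all. The members were chosen as Myc-driven genes, so a higher share than over all genes is no independent finding. Among members that rose in V2 WT the motif was present for 3 of 10, and the 3 windows of Wdr12 did not hold these letters. A match is a description of the sequence and not a binding site. The windows of the 4 members with the motif and the smallest p between V2 WT and DP WT are shown for the place of the motif, which is in capitals.
Utp20 (chr10:88826765-88827064, minus strand): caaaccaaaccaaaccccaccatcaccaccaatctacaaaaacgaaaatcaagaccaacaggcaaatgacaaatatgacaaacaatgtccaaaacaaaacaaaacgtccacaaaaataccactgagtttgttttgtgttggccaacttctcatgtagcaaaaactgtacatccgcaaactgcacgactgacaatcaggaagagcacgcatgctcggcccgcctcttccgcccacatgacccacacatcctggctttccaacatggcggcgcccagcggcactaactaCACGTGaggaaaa
Mybbp1a (chr11:72441077-72441376, plus strand): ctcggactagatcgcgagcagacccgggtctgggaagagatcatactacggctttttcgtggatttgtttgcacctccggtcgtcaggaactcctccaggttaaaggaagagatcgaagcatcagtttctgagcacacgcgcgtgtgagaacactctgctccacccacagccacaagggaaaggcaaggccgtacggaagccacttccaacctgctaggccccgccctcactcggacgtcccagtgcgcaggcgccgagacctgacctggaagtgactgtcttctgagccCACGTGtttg
Wdr43 (chr17:71615965-71616264, plus strand): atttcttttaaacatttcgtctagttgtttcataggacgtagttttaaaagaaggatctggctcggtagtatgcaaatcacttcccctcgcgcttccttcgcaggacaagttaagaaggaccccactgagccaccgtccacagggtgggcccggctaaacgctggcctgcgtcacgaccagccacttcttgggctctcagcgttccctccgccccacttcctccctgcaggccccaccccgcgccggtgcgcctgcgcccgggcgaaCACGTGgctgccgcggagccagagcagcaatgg
Tsr1 (chr11:74897830-74898129, plus strand): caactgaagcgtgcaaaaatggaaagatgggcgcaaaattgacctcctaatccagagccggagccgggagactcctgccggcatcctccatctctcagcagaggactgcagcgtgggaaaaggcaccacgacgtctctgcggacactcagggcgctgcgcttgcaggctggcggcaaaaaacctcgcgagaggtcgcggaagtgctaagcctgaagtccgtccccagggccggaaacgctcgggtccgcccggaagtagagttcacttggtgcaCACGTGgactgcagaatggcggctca
In these windows the motif began 37 (Utp20), 40 (Mybbp1a), 17 (Wdr43) and 24 (Tsr1) bases past the annotated start.

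Among RNA polymerase I genes, both subunits that form its catalytic core rose. Polr1a, the largest subunit, had 9.03, 8.75 and 8.86 in V2 WT, 8.75, 9.05, 8.64 and 9.02 in V2 cKO, 7.53 and 8.05 in DP WT, and 7.83 and 7.98 in DP cKO. Every V2 array lay above every DP array. It was 2.11-fold higher in V2 WT (log2 difference 1.08, SE 0.21, limma adjusted p = 0.00804) and 1.94-fold higher in V2 cKO (0.96, SE 0.20, limma adjusted p = 0.011). Polr1b, the other large subunit, had 9.32, 9.06 and 8.68 in V2 WT and 8.70, 9.28, 8.91 and 8.44 in V2 cKO. In DP it had 7.39 and 7.96 in WT and 7.78 and 8.18 in cKO, again without overlap. It rose by 1.28 in V2 WT (SE 0.25, limma adjusted p = 0.00758), while the cKO difference of 0.85 missed the threshold (SE 0.23, limma adjusted p = 0.0537). Polr1c, a subunit shared with RNA polymerase III, differed by 0.30 (SE 0.28) in WT, and Rrn3, the initiation factor that recruits the polymerase, by 0.26 (SE 0.23). Neither passed. None of 13 other RNA polymerase I genes passed, with a median of -0.10 in WT and -0.0037 in cKO. This list includes Polr2e, Polr2f, Polr2h, Polr2k and Polr2l, subunits shared with other RNA polymerases. Of the 13 genes 1 and 4 had an unadjusted p under 0.05 with limma, against 14% and 14.3% of all genes.

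**Figure D2:**
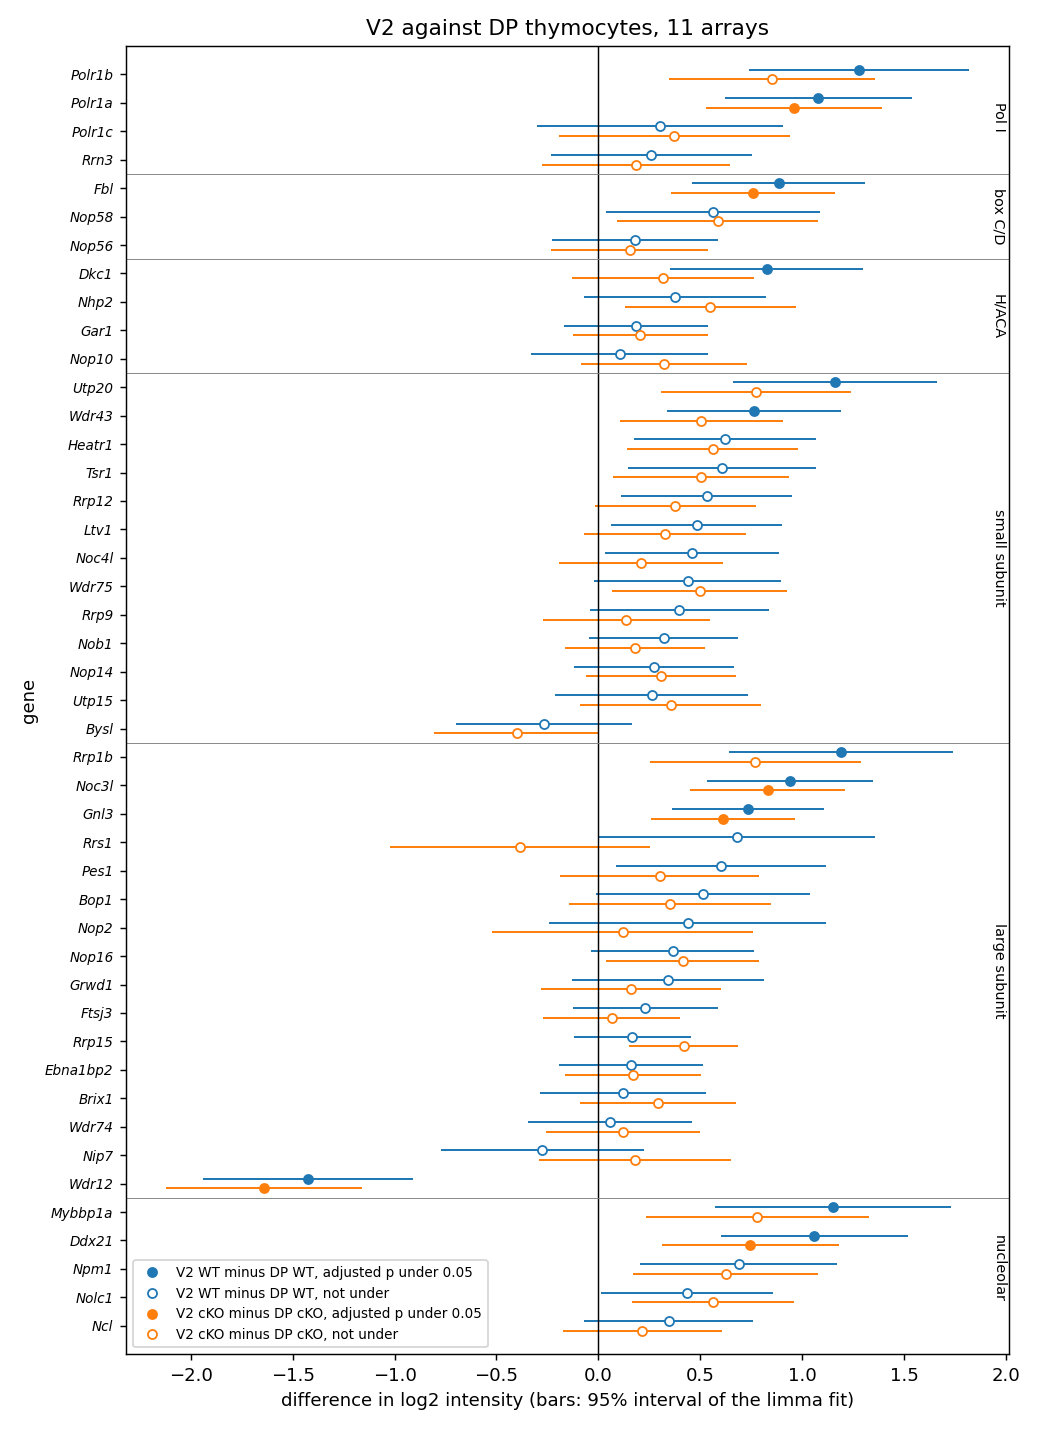
Difference in log2 intensity between V2 and DP cells for each member (rows, by role), in WT (blue) and cKO (orange), with the 95% interval of the limma fit; filled points have an adjusted p under 0.05. In each genotype 42 of 45 points lie right of 0, and Wdr12 lies at -1.42 and -1.64.

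Box C/D particles place methyl groups on ribosomal RNA. Fbl, their methyltransferase fibrillarin, had 9.91, 9.71 and 9.63 in V2 WT, 9.61, 9.84, 9.72 and 9.55 in V2 cKO, 8.77 and 8.91 in DP WT, and 8.70 and 9.14 in DP cKO. No V2 array overlapped a DP array. It rose by 0.89 in WT (SE 0.20, limma adjusted p = 0.0188) and by 0.76 in cKO (SE 0.18, limma adjusted p = 0.0293). A dimmer probe set for Fbl gave 0.41 (SE 0.22, limma adjusted p = 0.508 over all probe sets) in WT and 0.04 (SE 0.21) in cKO. Its probe sets thus disagree, and the rise in cKO rests on the brighter one. With the mean of its probe sets Fbl passed in WT and did not pass in cKO. The scaffold proteins Nop58 and Nop56 differed by 0.56 (SE 0.24) and 0.18 (SE 0.19) in WT, and neither passed. Nop58 had 8.46, 8.03 and 8.54 in V2 WT, 8.31, 8.58, 8.42 and 8.49 in V2 cKO, 8.19 and 7.42 in DP WT, and 7.65 and 8.08 in DP cKO, with V2 WT replicate 5 (V2imm) inside the DP range. Nop56 had 10.78, 10.72 and 10.59 in V2 WT, 10.57, 10.83, 10.64 and 10.34 in V2 cKO, 10.38 and 10.59 in DP WT, and 10.46 and 10.42 in DP cKO, and the populations overlapped.

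H/ACA particles convert uridine to pseudouridine. Dkc1, their pseudouridine synthase dyskerin, had 9.16, 9.60 and 9.55 in V2 WT, 9.44, 9.62, 9.48 and 9.15 in V2 cKO, 8.56 and 8.64 in DP WT, and 8.90 and 9.31 in DP cKO. WT populations did not overlap, whereas DP cKO replicate 4 lay inside the V2 cKO range. It rose by 0.83 in WT, just past the threshold (SE 0.22, limma adjusted p = 0.0496), and differed by 0.32 in cKO (SE 0.21, limma adjusted p = 0.598). Nhp2, a core protein of the particle, had 8.09, 7.98 and 8.28 in V2 WT, 8.30, 8.69, 8.88 and 8.33 in V2 cKO, 7.87 and 7.66 in DP WT, and 7.86 and 8.14 in DP cKO. Its V2 WT range overlapped DP cKO, and it did not pass in WT (0.38, SE 0.21) or cKO (0.55, SE 0.19). The core proteins Gar1 and Nop10 differed by 0.19 and 0.10 in WT. Of 10 genes that help to assemble small nucleolar ribonucleoproteins of either kind, 0 passed with limma in WT. An unadjusted p under 0.05 was found for 3, against 14% of all genes.

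Among 13 small subunit factors 2 rose in WT and 0 in cKO, and 12 of 13 had differences above 0 in each genotype, with medians of 0.46 and 0.36. Utp20, a large scaffold of the small subunit processome, had 8.88, 8.51 and 8.73 in V2 WT, 8.37, 8.75, 8.48 and 8.38 in V2 cKO, 7.32 and 7.75 in DP WT, and 7.40 and 8.04 in DP cKO. V2 and DP arrays did not overlap. It rose by 1.16 in WT (SE 0.23, limma adjusted p = 0.00848) and differed by 0.77 in cKO (SE 0.21, limma adjusted p = 0.0581). Wdr43, a processome protein, had 9.996, 9.91 and 9.90 in V2 WT, 10.26, 9.96, 9.68 and 9.79 in V2 cKO, 9.25 and 9.02 in DP WT, and 9.27 and 9.55 in DP cKO. It too separated the populations, and rose by 0.76 in WT (SE 0.20, limma adjusted p = 0.0426). Noc4l had 9.92, 9.70 and 9.38 in V2 WT, 9.42, 9.58, 9.38 and 9.24 in V2 cKO, 8.95 and 9.36 in DP WT, and 9.09 and 9.30 in DP cKO. Its populations overlapped and the difference of 0.46 (SE 0.20) did not pass. Of the remaining processome and export factors, Heatr1, Tsr1, Rrp12, Ltv1 and Wdr75 differed by 0.62, 0.61, 0.53, 0.48 and 0.44 in WT without passing. Rrp9, Nob1, the nuclease that makes the mature end of the small subunit RNA, Nop14 and Utp15 differed by 0.40, 0.32, 0.27 and 0.26 and did not pass either. Bysl, a late assembly factor, was the member of this class with a negative difference in each genotype, at -0.27 (SE 0.20) in WT and -0.40 (SE 0.19) in cKO, and did not pass.

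Large subunit factors were the most mixed class, with 3 that rose and 1 that fell of 16 in WT, and 2 and 1 in cKO. Noc3l had 8.61, 8.20 and 8.58 in V2 WT, 8.39, 8.43, 8.40 and 8.25 in V2 cKO, 7.46 and 7.59 in DP WT, and 7.34 and 7.72 in DP cKO. The populations did not overlap. It rose by 0.94 in WT (SE 0.19, limma adjusted p = 0.00893) and 0.83 in cKO (SE 0.18, limma adjusted p = 0.0124). Gnl3, the GTPase nucleostemin, rose by 0.74 in WT (SE 0.17, limma adjusted p = 0.0265) and 0.61 in cKO (SE 0.16, limma adjusted p = 0.046). Rrp1b rose by 1.19 in WT (SE 0.25, limma adjusted p = 0.014) and differed by 0.77 in cKO (SE 0.24, limma adjusted p = 0.0943). Wdr12, Pes1 and Bop1 are described next, and the remaining members of the class did not pass in either genotype. Nop2, an RNA methyltransferase, Nop16, Grwd1 and Ftsj3 differed by 0.44, 0.36, 0.34 and 0.23 in WT. Rrp15, Ebna1bp2, Brix1 and Wdr74 differed by 0.17, 0.16, 0.12 and 0.06, and Nip7 by -0.27 (SE 0.23) in WT and 0.18 (SE 0.22) in cKO. Rrs1 differed by 0.68 (SE 0.31) in WT and -0.39 (SE 0.29) in cKO, with opposite signs.

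Wdr12 fell, although it forms the PeBoW complex of large subunit maturation with Pes1 and Bop1. It had 8.90, 8.27 and 8.37 in V2 WT, 8.41, 8.70, 8.90 and 8.66 in V2 cKO, 10.09 and 9.80 in DP WT, and 10.46 and 10.15 in DP cKO. Each V2 array lay below each DP array. The difference was -1.42 in WT (SE 0.24, limma adjusted p = 0.00264) and -1.64 in cKO (SE 0.22, limma adjusted p = 0.000546). A dimmer probe set for Wdr12 gave -1.65 (SE 0.22) and -1.92 (SE 0.20). The array labelled DP cKO replicate 5 had 8.34 and that labelled V2 WT replicate 5 (immV2) 10.07, each in the range of the other population. Its partners did not pass and had the opposite sign, with Pes1 at 0.60 (SE 0.24) and Bop1 at 0.51 (SE 0.24) in WT.

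**Figure D3:**
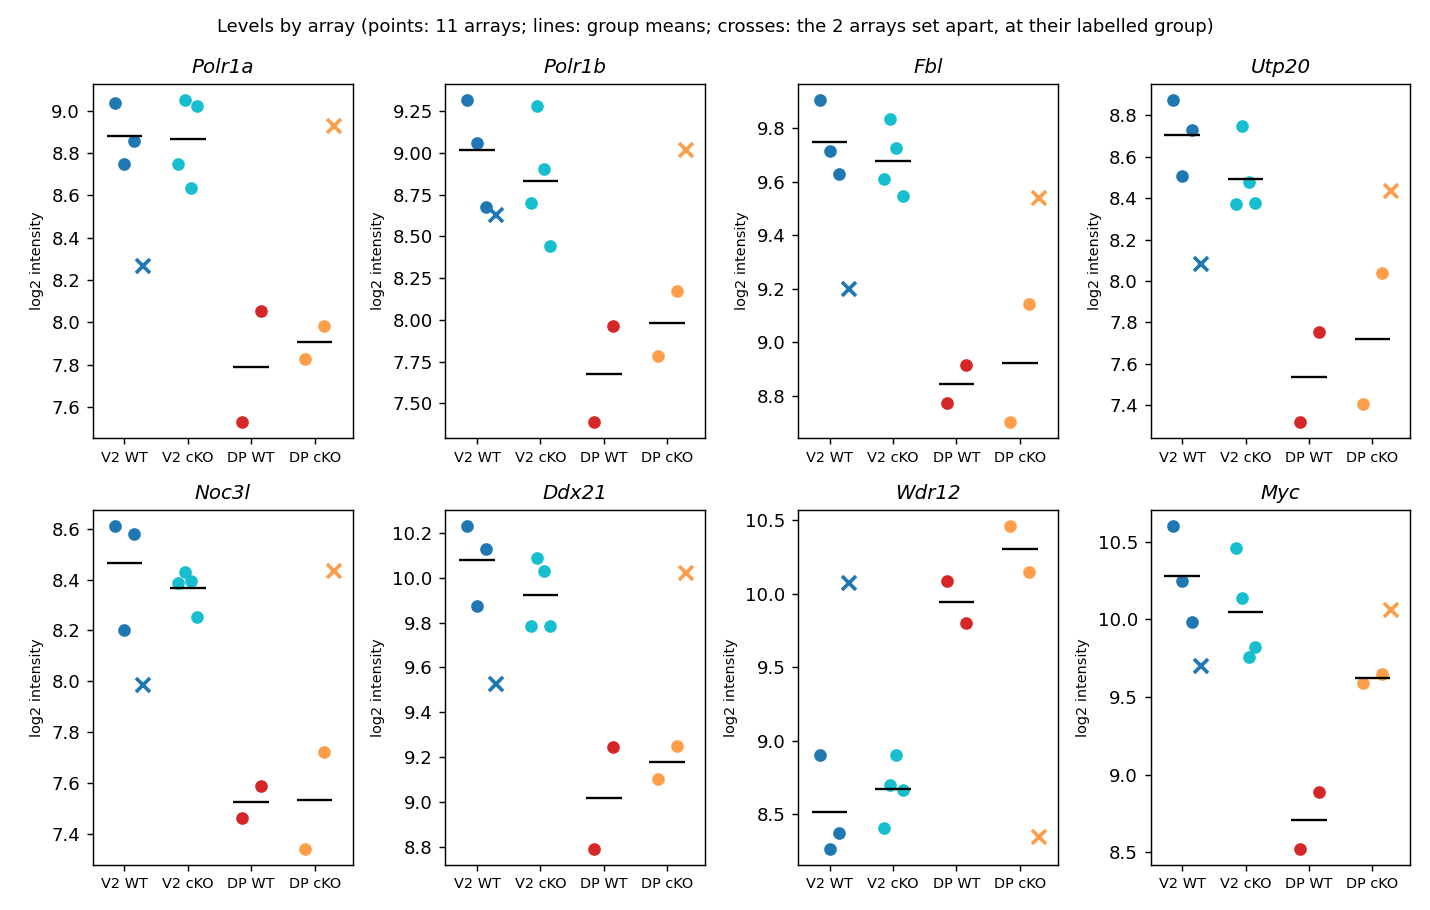
Log2 intensity of 7 members and of Myc by array; points are the 11 arrays kept, lines are group means and crosses are the 2 arrays set apart, drawn at their labelled group. V2 points lie above DP points in 6 members and below them in Wdr12, and Myc in DP cKO (9.59 and 9.65) lies above DP WT (8.52 and 8.89).

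Nucleolar proteins had positive differences in 5 of 5 members in each genotype. Ddx21, an RNA helicase of precursor transcription and processing, had 10.23, 9.87 and 10.13 in V2 WT, 9.78, 10.09, 10.03 and 9.78 in V2 cKO, 8.79 and 9.24 in DP WT, and 9.10 and 9.25 in DP cKO. V2 and DP did not overlap. It rose by 1.06 in WT (SE 0.21, limma adjusted p = 0.00943) and by 0.75 in cKO (SE 0.20, limma adjusted p = 0.0483). Mybbp1a, a nucleolar Myb-binding protein, had 9.60, 9.32 and 9.39 in V2 WT, 8.85, 9.71, 9.42 and 9.18 in V2 cKO, 8.25 and 8.31 in DP WT, and 8.16 and 8.86 in DP cKO. V2 and DP overlapped at V2 cKO replicate 4 (V2imm) and DP cKO replicate 4. It rose by 1.15 in WT (SE 0.27, limma adjusted p = 0.0251) and differed by 0.78 in cKO (SE 0.25, limma adjusted p = 0.117). Npm1, the histone chaperone nucleophosmin, had 11.07, 10.89 and 10.98 in V2 WT, 11.40, 10.81, 10.64 and 10.62 in V2 cKO, 10.35 and 10.14 in DP WT, and 10.16 and 10.33 in DP cKO. V2 and DP did not overlap, yet the WT difference of 0.69 missed the threshold (SE 0.22, limma adjusted p = 0.122). Nolc1 and Ncl differed by 0.44 and 0.35 in WT and did not pass.

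Within each population, no member passed between cKO and WT. In V2, 0 of 45 members and 0% of all genes passed with limma, with 3 members at an unadjusted p under 0.05 against 3.83% of all genes. The median was -0.01, with 20 members above 0 and 25 below, and differences ran from -0.42 to 0.54. The 95% interval lay within 1 log2 unit of 0 in 45 of 45 members and within 0.5 in 27. Smaller differences could have been missed with these arrays. Those 3 were Nip7 (0.54, SE 0.19), Nhp2 (0.41, SE 0.17) and Rrp15 (0.32, SE 0.11), each with a limma adjusted p of 0.994 or more. Rrp15 had 7.18, 7.18 and 7.19 in V2 WT and 7.56, 7.53, 7.40 and 7.49 in V2 cKO, without overlap. In DP it had 7.01 and 7.01 in WT and 7.05 and 7.10 in cKO. Rrp15 was picked for its small p in this same comparison, so its separation is no further support. How many genes separate V2 WT from V2 cKO was not counted.

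In DP, 0 of 45 members passed, against 0.0253% of all genes, and 0 had an unadjusted p under 0.05, against 2.71% of all genes. The median was 0.08, with 34 members above 0. DP cKO replicate 4 was the highest DP array in 27 of 45 members and in 21.6% of all genes. Without it the median was -0.0037 and 22 members were above 0. The interval lay within 1 log2 unit of 0 in 43 members and within 0.5 in 10. The knockout difference in V2 minus that in DP passed in 0 members and 0% of all genes, with a median of -0.12. Rrs1, a large subunit factor, was the 1 member with an unadjusted p under 0.05 (-1.07, SE 0.43), against 1.88% of all genes. It had 6.30, 5.89 and 6.36 in V2 WT, 5.03, 6.18, 6.09 and 6.004 in V2 cKO, 6.03 and 5.10 in DP WT, and 6.004 and 6.42 in DP cKO, with low values in V2 cKO replicate 4 (V2imm) and DP WT replicate 5. Its value was -0.76 without the former and -0.60 without the latter. V2 cKO replicate 4 (V2imm) was the lowest V2 array in 15 of 45 members and in 23.1% of all genes.

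**Figure D4:**
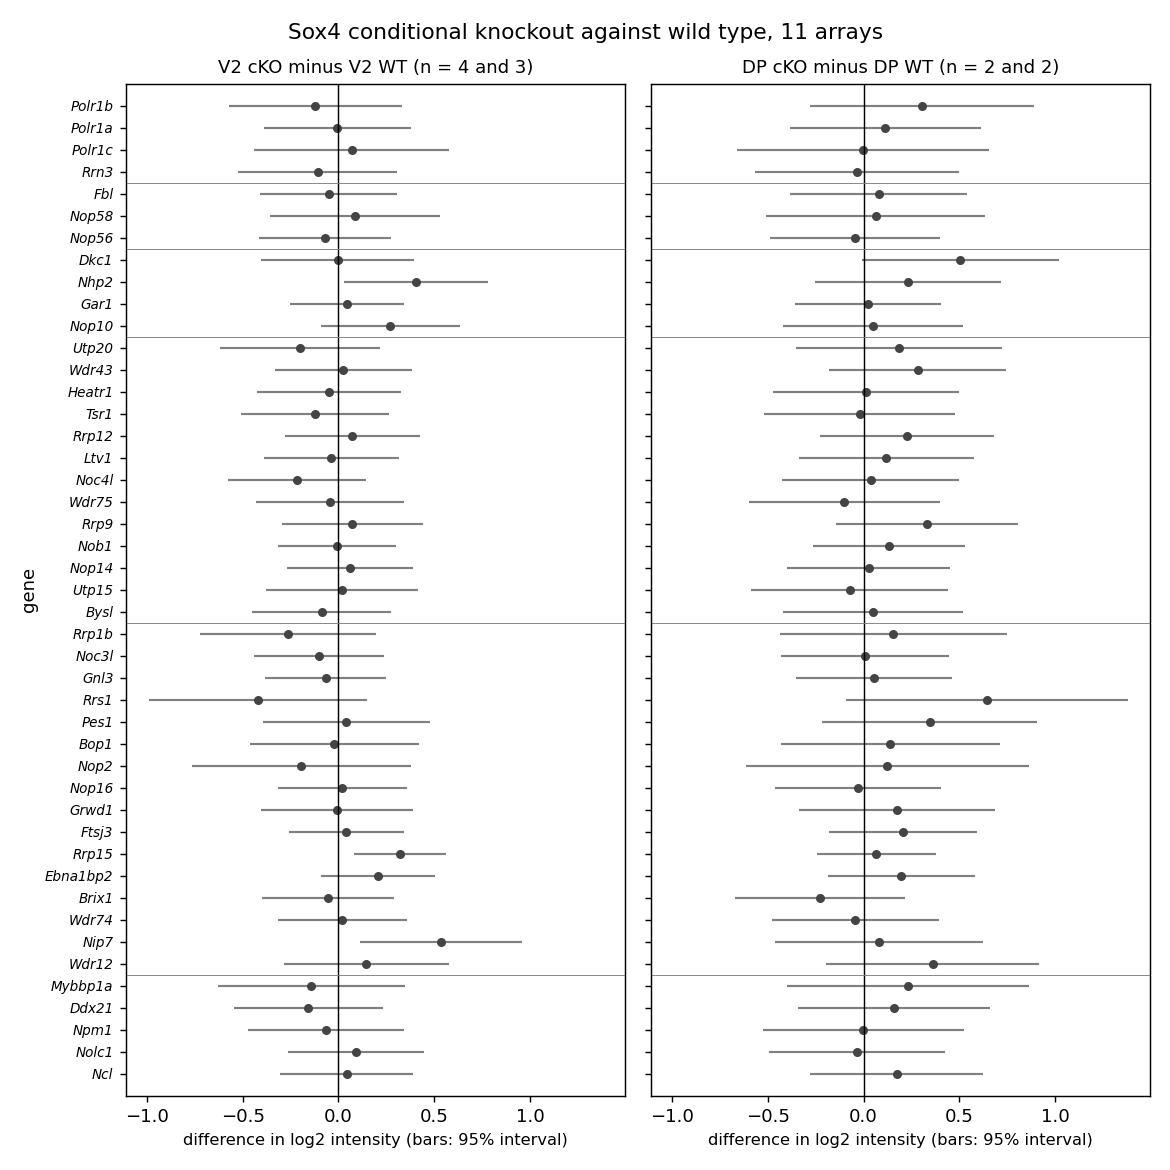
Difference in log2 intensity between cKO and WT for each member in V2 (left) and DP (right), with the 95% interval of the limma fit. No member had an adjusted p under 0.05, and the DP intervals are wider, with 2 arrays in each group.

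Myc was higher in V2 than DP cells in WT. It had 10.60, 10.25 and 9.98 in V2 WT, 10.46, 10.14, 9.76 and 9.82 in V2 cKO, 8.52 and 8.89 in DP WT, and 9.59 and 9.65 in DP cKO. V2 and DP did not overlap, and DP cKO lay between V2 and DP WT. The WT difference was 1.49 (SE 0.20, limma adjusted p = 0.00052), and 1.43 with all 13 arrays (limma adjusted p = 0.0326). In cKO it was 0.42 (SE 0.19, limma adjusted p = 0.322). DP cKO differed from DP WT by 0.91 (SE 0.22) without passing (limma adjusted p = 0.515), and the members differed there by -0.23 to 0.65, with 34 of 45 above 0 and a median of 0.08. Mycn, its relative, had 7.49, 7.49 and 7.62 in V2 WT, 8.11, 8.64, 7.51 and 7.49 in V2 cKO, 7.58 and 7.27 in DP WT, and 7.18 and 6.96 in DP cKO. It passed between the cKO populations (0.87, SE 0.23, limma adjusted p = 0.045) and differed by 0.03 in WT. Of 12 genes of the Myc network 1 rose, Myc, and 1 fell in V2 WT. Mxd3, of the Mxd family that competes with Myc for Max, fell in V2 WT (-0.90, SE 0.20, limma adjusted p = 0.0192).

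Other growth genes were set beside the members. Of 24 other Myc-induced growth genes 5 rose in V2 WT and 0 fell, with a median of 0.56, among them Ccnd2, a G1 cyclin (3.15, SE 0.30), Tfrc, the transferrin receptor (2.40, SE 0.34), and Srm, spermidine synthase (1.39, SE 0.31). Of 77 other ribosome biogenesis factors 6 rose and 0 fell, with a median of 0.12, led by Mdn1, the large subunit remodelling ATPase (1.48, SE 0.20), Dhx33, a nucleolar helicase (1.42, SE 0.20), and Nat10, an RNA acetyltransferase (1.03, SE 0.22). Of 57 genes listed as cytosolic ribosomal proteins 0 passed with limma, with a median of 0.18. An unadjusted p under 0.05 was found for 1, where 14% of all genes had one. The 57 include F2, a coagulation gene matched to Rpl3 through a synonym, and Rpl3 itself was not measured. Of 29 cell cycle and replication genes 0 passed with limma in V2 WT, with a median of -0.29, 8 above 0 and 21 below. Among these 29, 8 had an unadjusted p under 0.05, against 14% of all genes. In cKO 0 passed with limma, with a median of -0.19, 10 above 0 and 19 below. There 7 had an unadjusted p under 0.05, against 14.3% of all genes. Slc7a5, an amino acid transporter, rose (1.35, SE 0.26) and Slc1a5, the glutamine transporter, fell (-0.88, SE 0.23), out of 12 nutrient growth genes. Of 10 p53 response genes 0 rose and 2 fell, Fas (-2.77, SE 0.19) and Trp53inp1 (-1.07, SE 0.20).

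Some markers of other cells were higher in V2. The median log2 intensity per array was 6.11 to 6.71 for 18 macrophage and dendritic cell markers, 5.88 to 6.43 for 9 B cell markers, 5.90 to 6.53 for 4 erythroid markers, 5.64 to 6.28 for 9 granulocyte markers and 6.63 to 7.44 for 11 stromal and epithelial markers in the 11 arrays. Over all genes the medians of these arrays were 6.97 to 7.10. The pericyte receptor Pdgfrb rose in V2 in WT (2.60, SE 0.35) and cKO (1.92, SE 0.33), with 8.03 to 9.50 in V2 arrays and 6.36 to 7.08 in DP arrays. Epcam, an epithelial adhesion molecule, rose in cKO (0.73, SE 0.19) and differed by 0.61 (SE 0.20) in WT. No other gene of these lists passed in either comparison. Of the 11 stromal and epithelial markers, 4 differed above 0 and 7 below in WT, with a median of -0.05. In cKO 3 differed above 0 and 8 below, with a median of -0.12. Of the antigen presentation genes, Cd74 differed by 2.33 (SE 0.63, limma adjusted p = 0.0544) in WT and 1.72 (SE 0.59) in cKO, and H2-Aa by 1.63 (SE 0.64) and 1.81 (SE 0.60). Of the 18 macrophage and dendritic cell markers, 12 differed above 0 and 6 below in WT, from -0.75 to 2.33, with a median of 0.10. In cKO 13 differed above 0 and 5 below, with a median of 0.18. An unadjusted p under 0.05 with limma was found for 3 of the 18 in WT and 4 in cKO. Over all genes these shares were 14% and 14.3%. The part of such cells in the members' differences was not tested.

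**Figure D5:**
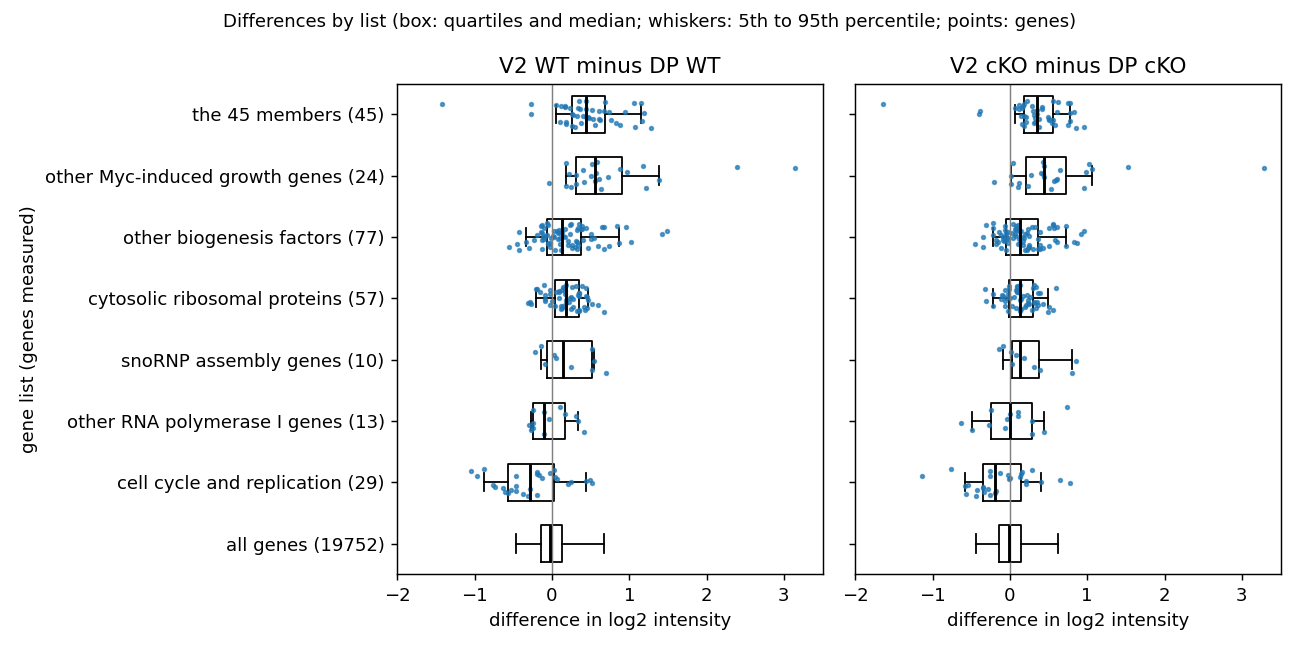
Difference in log2 intensity between V2 and DP cells by gene list, in WT (left) and cKO (right); boxes give quartiles and median, whiskers the 5th to 95th percentile, and points single genes. The median of the members is 0.44 in WT and 0.35 in cKO, and that of all genes is -0.02 and -0.01.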

How the data were processed

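RNA of sorted thymocytes was hybridised to 13 arrays. The deposited values are linear intensity values per probe set, which the authors made with Affymetrix Power Tools and RMA according to the submitters' processing notes. RMA corrects background and normalises arrays to a common distribution, which can hide a change in total RNA. They ran from 6.16 to 23800, and log2 was taken here. GEO's platform annotation gave 1 symbol to 21425 of 24922 probe sets, several to 1399 and listed 2098 not at all; the brightest single-symbol probe set represented each of 19752 genes.

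Groups came from titles. The model (limma 3.58.1, R 4.3.3, lmFit and eBayes with trend) had 4 group means and a title set covariate, over 11 arrays, with two-sided tests and Benjamini-Hochberg adjustment over all genes at 0.05. It was tested on simulated data. Other normalisations, filters, moderation, covariates, blocks, array sets and left-out arrays were tried. Members, lists, arrays set apart and tests were chosen with earlier results of these data known. Values in every array are given, in each role, for the 2 members with the smallest p between V2 WT and DP WT and the 1 with the smallest p between V2 cKO and V2 WT, for the 2 brightest and 2 dimmest members, and for Myc, Mycn and Sox4; of other lists up to 3 genes with the smallest p are named. Figures used matplotlib 3.10.9.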

Additional observations from a re-analysis of the deposited data

Results flagged for a closer look

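In groups of 4 arrays, 40 combinations of group and gene were examined for an array far from the others, and chance gives about 1 in 20 such cases. Wdr43 was 9.40 in the array labelled V2 WT replicate 5 (immV2), against 9.90 to 9.996 in the other V2 WT arrays. Rrp15 was 7.07 in that same array, against 7.18 to 7.19. Rrs1 was 5.03 in V2 cKO replicate 4 (V2imm), against 6.004 to 6.18 in the other V2 cKO arrays. Sox4 was 9.60 in V2 cKO replicate 5 (V2imm), against 8.07 to 8.23.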

How the results depend on the processing

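Direction held: members above 0 numbered 38 to 43 of 45 in WT and 39 to 42 in cKO over 26 alternatives each, and no named member that passed changed sign. Median differences ran from 0.33 to 0.49 in WT and from 0.26 to 0.44 in cKO. Counts of members past the threshold did not hold. Counts over all genes moved too, from 11 to 1575 in WT and from 7 to 1632 in cKO. In WT, 12 members passed, against 0 with all 13 arrays, 4 with V2imm or immV2 arrays alone, and 0 to 14 leaving out 1 array. In cKO, 6 passed, against 0 with all 13 arrays, 3 with median centring, 2 with a covariate for Xist above or below a log2 intensity of 9, 1 with the compared groups alone, 1 with V2imm and 3 with immV2 arrays, and 1 to 10 leaving out 1 array. An alternative chosen after seeing the data, quantile normalisation of all 13 arrays, gave 0 in WT and 0 in cKO. The cause was not tested. Deviations of same-numbered samples correlated at 0.18 in DP and at -0.50, -0.35 and -0.22 in V2. The fit makes the deviations of V2 samples within a title set sum to 0, which lowers these correlations. They therefore cannot decide whether replicate numbers pair samples. With the replicate block 10 members passed in WT and 3 in cKO. Within populations 0 members passed under every alternative run, with medians from -0.08 to 0.06 in V2 and from -0.03 to 0.20 in DP. Wdr12 passed in WT except with all 13 arrays (either normalisation) and without DP WT replicate 3. Signal over background was not given per probe set, so dim members such as Rrs1 have no detection limit here.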

Other observations

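Neighbouring genes of Wdr12 in the RefSeq order were examined after its value was seen. Between V2 WT and DP WT, the gene before it, Ica1l, fell by 0.70 (SE 0.18, limma adjusted p = 0.0426), and the gene after it, Carf, differed by -0.50 (SE 0.19, limma adjusted p = 0.223). Nbeal1, Fam117b, Bmpr2 and Cyp20a1 differed by -0.17, 0.38, 0.56 and 0.56 and did not pass.

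The 57 genes listed as cytosolic ribosomal proteins, the cargo of the assembly factors, again include F2 in place of Rpl3. Between DP cKO and DP WT 52 of 57 had positive differences, with a median of 0.25. With limma 0 passed and 0 had an unadjusted p under 0.05. Their median log2 intensity was 10.65 in DP WT replicate 5 and 11.46 to 11.75 in the other 3 DP arrays kept. The part of that array in the difference was not tested. The E-box was present for 16 of 61 other ribosome biogenesis factors with a window (26.2%) and 8 of 20 other Myc-induced growth genes (40%). The latter list was chosen as Myc-induced, so its share is no independent finding either. The motif was present for 5 of 46 genes of the cytosolic ribosomal protein list (10.9%) and 1 of 24 cell cycle genes (4.17%).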
